A study of Homo sapiens with 8 samples.

Results

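Mitochondrial ribosomal protein genes were followed across 8 RNA-seq libraries of CARD14-knockout HaCaT keratinocytes. They were taken as every row of the count table whose symbol is MRPL or MRPS followed by a number and at most 1 further letter. That rule, which used no measured value, found 76 of 28518 rows, of which 47 were MRPL genes and 29 were MRPS genes. All 76 passed the filter on low counts, as did 14834 genes of the table in all.

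The mitochondrial ribosome translates the few messenger RNAs of mitochondrial DNA, which encode core subunits of the respiratory chain and of ATP synthase. Its ribosomal RNAs are made inside the organelle, whereas its proteins are encoded in the nucleus, made in the cytosol and imported. The small subunit (MRPS proteins) decodes the messenger RNA, and the large subunit (MRPL proteins) joins the amino acids and holds the exit tunnel. Some of these proteins descend from bacterial ribosomal proteins and others are found only in mitochondria. MYC, which the series title links to CARD14, is known as an activator of ribosomal and mitochondrial biogenesis genes.

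HaCaT is an immortalised human keratinocyte line, and the cells of every library lacked their own CARD14. They had received 9 ug of plasmid in a 10 cm dish, which encoded CARD14 joined to eGFP through the self-cleaving T2A peptide. Fresh medium followed 2 h later, and at 24 h the cells positive for GFP were collected by sorting. The 4 groups carried CARD14-WT, CARD14-R820W, CARD14-N737H or CARD14-I593T, with an A and a B library each. The series text calls the 3 variants hypomorphic, asks which pathways they activate differently from WT CARD14, and speaks of 2 independent experiments. The labels do not say that the letters stand for those experiments, so each p-value reflects only how far these libraries differ among themselves, which may in part be technical. Every library thus came from cells with CARD14 supplied by a plasmid, and cells without plasmid were not analysed here. Whether the knockout line was 1 clone is not given in the sources used here.

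Total counts per library ran from 17892608 to 24629860. Genes with a count numbered 17836 to 18855 in 7 libraries and 21059 in N737H B, the library that stands apart on this measure. CARD14 RNA, which counts cannot divide into plasmid and cell, ran from 444 CPM (counts scaled to a common library size) in N737H A to 1410 CPM in R820W B. For WT, R820W, N737H and I593T it was 1127, 1190, 444 and 499.6 CPM in A. In B it was 978, 1410, 1005 and 1394 CPM in the same order. All 10 keratinocyte markers had a mean above 1 CPM, as did 0 of 8 fibroblast, 0 of 6 leukocyte and 0 of 4 endothelial markers. The melanocyte list had 3 of 5 above 1 CPM (MITF, PMEL and MLANA), with a summed level of 8.78 to 14.1 CPM per library. In bulk RNA of sorted cells, fewer cells expressing a gene and less RNA per cell cannot be told apart.

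Mitochondrial ribosomal protein genes were expressed at mean levels from 3.502 CPM (MRPL23) to 451 CPM (MRPL3) in these cells. The MRPL genes had a median of 135 CPM over the 8 libraries and the MRPS genes a median of 123 CPM. Highest was MRPL3, whose protein lies near the peptidyl transferase centre, at 484, 453, 489.9 and 489 CPM in the A libraries of WT, R820W, N737H and I593T. It stood at 456, 409, 399 and 431 CPM in the B libraries in the same order, below the A library of the same construct in each case. The next large-subunit genes were MRPL37, whose protein is specific to mitochondria, with 292 to 402 CPM, and MRPL13, a bacterial homolog, with 219 to 300.3 CPM. MRPL17, a bacterial homolog at the subunit's median level, ran from 111 CPM in WT A to 176 CPM in WT B.

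Among the MRPS genes, MRPS7, a bacterial homolog in the head of the small subunit, led with 200.2 CPM in WT A and 299.8 CPM in WT B, its lowest and highest values. MRPS34, whose protein is specific to mitochondria, had 144, 196, 216 and 195 CPM in the A libraries and 293, 239.5, 205 and 264 CPM in the B libraries, again in the order WT, R820W, N737H and I593T. MRPS15, a homolog of the bacterial protein of the same number, had 152 to 236 CPM. MRPS11, a bacterial homolog of the platform and the median MRPS gene, had 111 to 152 CPM. All 4 of these MRPS genes had their lowest value in WT A and their highest in WT B.

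Levels were also divided by the length of the annotated principal transcript. The median was 88.7 CPM per kilobase for MRPL genes and 65.7 CPM per kilobase for MRPS genes. MRPL3 was again highest at 265 CPM per kilobase, and MRPL23, a bacterial homolog at the exit tunnel, was lowest at 4.76 CPM per kilobase. Its counts alone were as low as 42 in a library, while every other MRPL gene had at least 381 counts and every MRPS gene at least 784.

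Promoter sequence is shown for 6 members, namely the most abundant pair of each subunit and the member with the smallest p in each direction between the letters. Each line holds the 250 bases before the transcription start, 5′ to 3′ along the gene, from RefSeq on GRCh38.p14. Capitals mark a match to a motif searched on both strands. The motifs were CACGTG (the E-box that MYC and MAX bind), GCATGCGC (NRF1), CCGGAAGT (ETS factors such as GABPA) and AAGATGGCG (YY1). MRPL3 is at chr3:131502972-131503221 (minus strand), MRPL37 at chr1:54199917-54200166 (plus), MRPS7 at chr17:75261629-75261878 (plus), MRPS34 at chr16:1773135-1773384 (minus), MRPL12 at chr17:81703117-81703366 (plus) and MRPL47 at chr3:179604639-179604888 (minus).
MRPL3: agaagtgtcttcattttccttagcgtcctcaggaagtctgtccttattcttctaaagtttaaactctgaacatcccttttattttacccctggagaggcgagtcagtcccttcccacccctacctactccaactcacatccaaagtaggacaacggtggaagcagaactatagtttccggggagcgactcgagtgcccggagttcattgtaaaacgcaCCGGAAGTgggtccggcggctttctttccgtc
MRPL37: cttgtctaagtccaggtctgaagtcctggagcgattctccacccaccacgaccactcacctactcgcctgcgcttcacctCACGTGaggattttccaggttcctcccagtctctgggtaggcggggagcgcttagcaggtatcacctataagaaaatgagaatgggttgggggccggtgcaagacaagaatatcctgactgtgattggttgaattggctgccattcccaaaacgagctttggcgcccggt
MRPS7: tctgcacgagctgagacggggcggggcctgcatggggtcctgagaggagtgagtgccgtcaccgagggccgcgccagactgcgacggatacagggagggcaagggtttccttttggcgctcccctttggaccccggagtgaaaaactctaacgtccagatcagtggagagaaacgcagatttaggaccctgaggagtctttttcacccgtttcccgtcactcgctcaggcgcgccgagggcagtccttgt
MRPS34: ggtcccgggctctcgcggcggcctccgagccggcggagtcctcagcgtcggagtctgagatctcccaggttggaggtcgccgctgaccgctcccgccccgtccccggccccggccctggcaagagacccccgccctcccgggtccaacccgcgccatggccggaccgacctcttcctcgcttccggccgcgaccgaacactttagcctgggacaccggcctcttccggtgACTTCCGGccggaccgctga
MRPL12: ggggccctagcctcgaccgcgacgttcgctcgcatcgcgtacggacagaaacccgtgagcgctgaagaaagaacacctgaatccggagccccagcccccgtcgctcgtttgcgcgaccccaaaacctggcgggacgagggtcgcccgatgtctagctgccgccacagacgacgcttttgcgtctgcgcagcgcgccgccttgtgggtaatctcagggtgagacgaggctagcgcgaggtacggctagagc
MRPL47: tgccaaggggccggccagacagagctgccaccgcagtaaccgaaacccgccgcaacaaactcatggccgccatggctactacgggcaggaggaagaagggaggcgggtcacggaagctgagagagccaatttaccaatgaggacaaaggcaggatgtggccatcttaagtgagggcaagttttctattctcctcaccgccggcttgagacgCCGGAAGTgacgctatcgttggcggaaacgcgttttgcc

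The ETS motif lay at positions -32 to -25 in MRPL3, -20 to -13 in MRPS34 and -39 to -32 in MRPL47, counting the start base as 0. In MRPL37 the capitals mark an E-box at -170 to -165, and the stretches of MRPS7 and MRPL12 held none of these letters. RefSeq windows from 250 bases before to 50 after the start were found for 67 of the 76 members. An E-box stood in 6 of the 67 (8.96%), against 7.43% of 27305 windows of the same length for all genes. The YY1 motif stood in 13 (19.4%, against 1.85%) and the ETS motif in 11 (16.4%, against 4.44%). The NRF1 motif stood in 6 (8.96%, against 3.27%). At least 1 of the motifs stood in 27 of the 67 windows (40.3%) and in 15.2% of all windows. These are matches of letters, not measured binding.

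The members varied little across the 8 libraries. Their median standard deviation of log2 CPM was 0.160, against 0.271 for all genes tested and 0.175 for the 5444 genes at least as abundant as the lowest member other than MRPL23. The highest library was less than 1.5 times the lowest for 51 of the 76 members. MRPS27, a mitochondria-specific small-subunit protein with pentatricopeptide repeats, varied least, with 167 CPM in R820W A as its lowest and 192 CPM in WT B as its highest value (standard deviation 0.061). MRPL35, a bacterial homolog, came next with 117 to 137 CPM (0.075). Ratios above 2 between the highest and the lowest library were found for 7 members, namely MRPL12, MRPL23, MRPL24, MRPL41, MRPL54, MRPS26 and MRPS34.

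What variation there was ran mostly together in both subunits and was widest between the 2 WT libraries. Summed over the 47 MRPL genes, the A libraries of WT, R820W, N737H and I593T held 6164, 6194, 6909 and 6666 CPM. The B libraries held 7824, 6372, 6154 and 7125 CPM. The 29 MRPS genes summed to 3247, 3347, 3675 and 3499.9 CPM in A and to 4247, 3472, 3343 and 3856 CPM in B. WT A was thus the lowest MRPS library and close to the lowest MRPL library, N737H B, and WT B was the highest for both subunits. The ratio of the MRPL to the MRPS sum stayed between 1.83 and 1.91.

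Of the 76 members, 57 had their highest value in WT B and 34 their lowest in WT A. N737H B was lowest for 21 and R820W A for 14. Above their own mean over the libraries stood 19, 8, 63 and 35 members in the A libraries of WT, R820W, N737H and I593T, and 73, 21, 14 and 59 in the B libraries. The median deviation from the own mean in WT A was -0.17 for MRPL and -0.14 for MRPS genes on the log2 scale, and in WT B it was 0.26 for both. The 81 cytosolic ribosomal protein genes tested, fixed as a comparator, had medians of -0.26 in WT A and 0.32 in WT B.

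**Figure D1:**
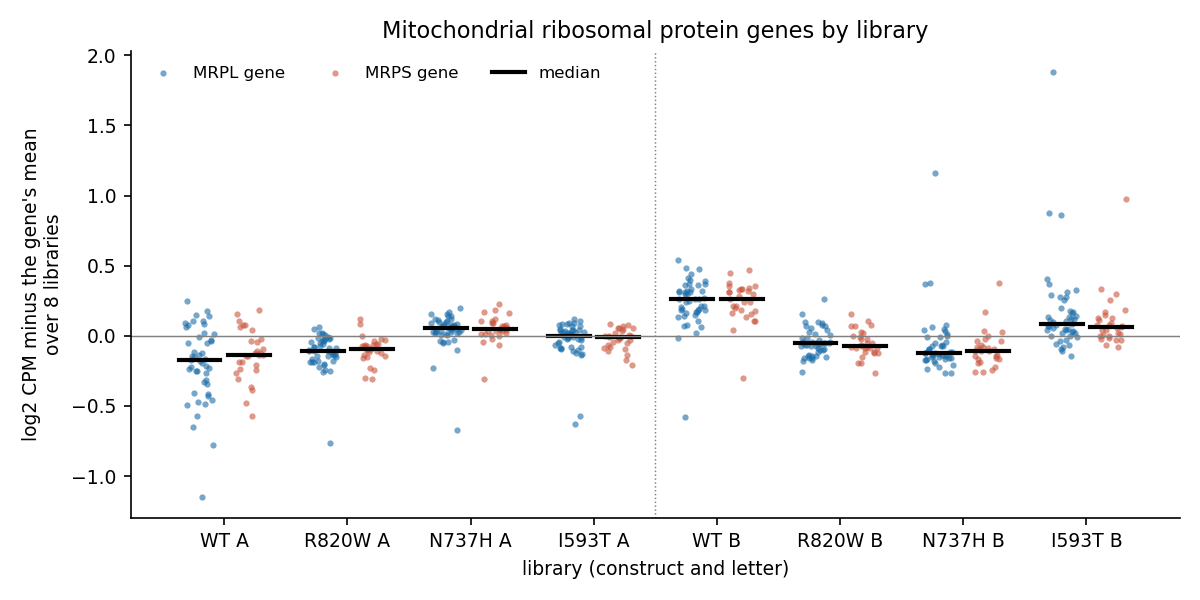
Each point is 1 mitochondrial ribosomal protein gene in 1 library, as log2 CPM minus that gene's mean over the 8 libraries, with MRPL and MRPS genes apart and bars at the medians. The medians of both subunits are lowest in WT A (-0.17 and -0.14) and highest in WT B (0.26 each), and the separate points far above the rest in I593T B include MRPL41.

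No mitochondrial ribosomal protein gene passed the adjusted test between R820W and WT. The MRPL genes summed to 6283 ± 125 CPM (SD, n = 2) with R820W and to 6994 ± 1174 CPM with WT, and the MRPS genes to 3409 ± 88.7 and 3747 ± 707 CPM. Of the 76 members, 69 had a fitted log2 fold change below 0 and 7 above, with a median of -0.17 against -0.01 over all genes tested. The median was -0.17 for both subunits, and -0.07 for both when libraries were scaled by their totals alone. edgeR's quasi-likelihood test with Benjamini-Hochberg adjustment called 0 members and 0 of 14834 genes (0%), and DESeq2 also called 0 members. At an unadjusted p under 0.05 stood 1 member, MRPL50, where 1.04% of all genes did. Both R820W libraries lay below both WT libraries for 23 members, against 12.8% of all genes, and above them for 0, against 12.6%.

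MRPL50, a mitochondria-specific protein of the large subunit, had 172 and 179 CPM with R820W in A and B and 219 and 228 CPM with WT. Its 2 groups did not overlap, and its log2 fold change was -0.35 ± 0.14 (SE; edgeR adjusted p = 1.00). MRPS18C, the closest of the 3 MRPS18 paralogs to the bacterial protein, had 90.7 and 93.7 CPM against 105 and 137 CPM in WT (-0.39 ± 0.17). MRPL19, a bacterial homolog, had 183 and 199 CPM against 231 and 237 CPM (-0.30 ± 0.14). Only MRPL12 and MRPS26 met the naming rule among the members with a value above 0, at 0.47 ± 0.44 and 0.25 ± 0.37. MRPL12 ran from 0.03 without WT A to 1.20 without WT B, and MRPS26 was 0.04 without R820W B.

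The R820W difference had opposite signs in the 2 letters. Within A, 45 members were higher with R820W than with WT and 31 lower, with a median difference of 0.05 on the log2 scale. Within B, 3 were higher and 73 lower, with a median of -0.30. The fitted median was -0.27 for MRPL and -0.29 for MRPS genes without WT A, and 0.11 and 0.07 without WT B, so its direction rested on WT B.

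No member passed the adjusted test between N737H and WT either, and the median difference had opposite signs in A and B. With N737H the mean sums were 6531 ± 534 CPM for MRPL and 3509 ± 235 CPM for MRPS genes, between the 2 WT libraries. There were 12 members above and 64 below 0, with a median of -0.09 against -0.03 over all genes. The medians were -0.09 for MRPL and -0.11 for MRPS genes, and they turned to 0.03 and 0.0080 with library totals alone, a scaling that moved the median of all genes by 0.115. edgeR and DESeq2 each called 0 members, 0% of all genes passed edgeR's test, and 0 members had an unadjusted edgeR p under 0.05, where 2.44% of all genes had one. Both N737H libraries were below both WT libraries for 8 members (12.4% of all genes) and above them for 0 (9.92%).

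MRPS30, whose protein sits in the large subunit in spite of its symbol, had 134 CPM in A and 115 CPM in B with N737H. In WT it had 149 and 146 CPM, which gave -0.24 ± 0.14 (SE, n = 2 per group). MRPL50 stood at 202 and 180.3 CPM (-0.23 ± 0.14). MRPL45, the protein at the tunnel exit that tethers the ribosome to the inner membrane, had 151 and 129.6 CPM against 162 and 168 CPM in WT (-0.23 ± 0.14). Higher were MRPL12 (0.57 ± 0.44) and MRPS26 (0.41 ± 0.37), and none of these passed (edgeR adjusted p = 1.00 for each). MRPL12 ran from 0.14 without WT A to 1.29 without WT B, and MRPS26 was 0.05 without N737H B. Within A, 64 members were higher than in WT and 12 lower (median 0.17). Within B, 4 were higher and 72 lower (median -0.36). Without WT B the fitted medians were 0.14 for MRPL and 0.07 for MRPS genes.

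With I593T the sums were 6895 ± 324 CPM for MRPL and 3678 ± 252 CPM for MRPS genes. Above 0 stood 28 members and below 0 stood 48, with a median of -0.05 against -0.02 over all genes. MRPL genes had a median of -0.05 and MRPS genes of -0.06, which turned to 0.02 and 0.0024 with library totals alone. edgeR and DESeq2 called 0 members (edgeR called 0% of all genes), and 0 members had an unadjusted edgeR p under 0.05, where 1.43% of all genes had one. Both I593T libraries were below both WT libraries for 14 members (11% of all genes) and above for 1, MRPS26 (9.61%). Within A, 58 members were higher and 18 lower (median 0.13), and within B, 11 were higher and 65 lower (median -0.19). Without WT B the fitted medians were 0.22 for MRPL and 0.15 for MRPS genes.

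MRPS26, a mitochondria-specific protein of the small subunit, had 89.1 and 92.7 CPM in WT A and B. With R820W it had 92.6 and 123 CPM, with N737H 92.6 and 148 CPM, and with I593T 101 and 224 CPM. The WT pair was narrow and the A libraries of all groups lay close together, while the 3 variants were higher in B. Its log2 fold change for I593T was 0.84 ± 0.37 (SE, n = 2 per group; edgeR adjusted p = 1.00), and 0.16 without I593T B.

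MRPL12, the stalk protein that brings translation factors to the large subunit, had 38.0 CPM in WT A and 88.0 CPM in WT B. Its other values were 74.1 and 101 CPM with R820W, 78.4 and 109 CPM with N737H, and 76.3 and 153 CPM with I593T, for A and B. Each variant library exceeded the WT library of its letter, but the range between the WT libraries held all 3 variant A values. The log2 fold change for I593T was 0.86 ± 0.44 (SE, n = 2 per group; edgeR adjusted p = 1.00), and it ran from 0.27 without I593T B to 1.59 without WT B.

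Among the members lower with I593T, MRPL19 had 202 and 212 CPM (-0.18 ± 0.14). MRPS10, a bacterial homolog in the head of the small subunit, had 137 and 131 CPM against 154 and 149 CPM in WT (-0.18 ± 0.13). MRPS9, another bacterial homolog of the head, had 145 and 134 CPM against 147 and 165 CPM (-0.17 ± 0.15). MRPL34, a small bacterial homolog of the large subunit, was higher, with 77.8 and 95.6 CPM against 57.5 and 86.1 CPM (0.27 ± 0.22). Of these 4 genes, only MRPL34 had values that overlapped those of WT.

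**Figure D2:**
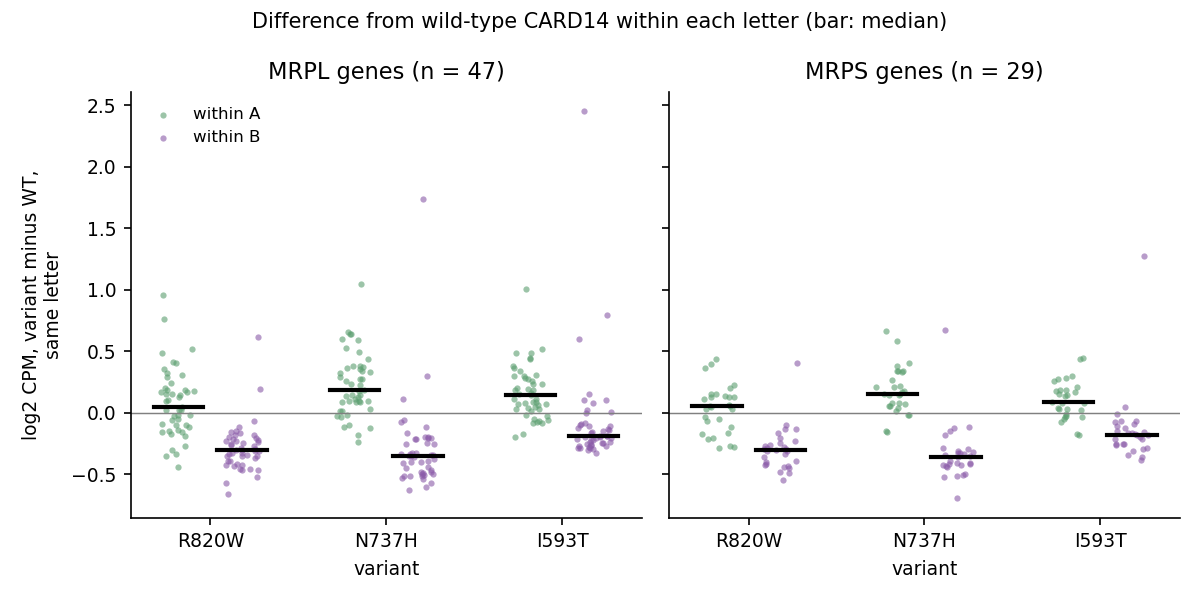
Each point is 1 member's log2 CPM in a variant library minus that in the WT library of the same letter, for 47 MRPL genes (left) and 29 MRPS genes (right), with bars at the medians. For all 3 variants the medians lie above 0 within A and below 0 within B in both subunits, and the 1 WT library of each letter is shared by the 3 variants.

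Averaged over the 3 variants, 14 members were above and 62 below WT, with a median of -0.11 against -0.02 over all genes tested. The medians of -0.10 for MRPL and -0.12 for MRPS genes turned to 0.14 and 0.10 without WT B, and were -0.0036 and -0.03 with library totals alone. edgeR called 0 members (0% of all genes) and 0 had an unadjusted p under 0.05 (1.31% of all genes). DESeq2 called 0 members as well. All 6 variant libraries lay below both WT libraries for 8 members, where 3.13% of all genes did so, and above both for 0 (2.47%). These 8, named after their values were seen, were MRPL19, MRPL42, MRPL45, MRPL50, MRPS10, MRPS22, MRPS30 and MRPS31. The smallest p-values below 0 belonged to MRPL50 (-0.23 ± 0.11, SE), MRPL19 (-0.22 ± 0.11) and MRPS30 (-0.22 ± 0.12), and above 0 to MRPL12 (0.64 ± 0.37) and MRPS26 (0.50 ± 0.31). MRPL12 was 0.20 without WT A and 1.36 without WT B, and MRPS26 was 0.26 without I593T B. The comparisons with WT share the 2 WT libraries, so their values are not independent of each other. Within A, the mean of the variants was higher than WT for 59 members (median 0.13), and within B it was lower for 72 (median -0.30).

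After these values had been seen, an edgeR test of the difference between the letters was added on the same libraries. Its model held construct, letter and a term for the variants in B, which left 2 residual degrees of freedom. The pattern was chosen from these libraries, so the test describes it and gives no independent support. The variants minus WT was lower in B than in A for 72 members and higher for 4, with a median of -0.42 on the log2 scale against 0.05 over all genes tested. The median was -0.42 for both subunits. At an unadjusted p under 0.05 stood 39 members lower in B and 2 higher, where 9.9% of all genes were lower and 7.58% higher. Past the adjusted threshold were 0 members and 0.195% of all genes, and the smallest adjusted p of a member was 0.117, for MRPL24 (-0.87 ± 0.21, SE). MRPS34 had -0.81 ± 0.22 and MRPL41 the opposite sign, at 1.80 ± 0.51. DESeq2 called 6 members, and it called 543 of 22949 genes in all. The number of members that edgeR called moved when some variant libraries were left out, which leaves 1 library of that construct. Each letter holds 1 WT library, so this difference could not be fitted without either of them.

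The variants were also set against each other, with edgeR and DESeq2 calling 0 members in each of the 3 pairs (0% of all genes by edgeR). No member had an unadjusted edgeR p under 0.05 in any pair, where 1.63% of all genes had one for N737H against R820W, 1.23% for I593T against R820W and 1.14% for I593T against N737H. With I593T, 72 members were above R820W and 4 below (median 0.12, against -0.0016 over all genes). Both I593T libraries exceeded both R820W libraries for 39 members, against 13.2% of all genes, and were below them for 0, against 14.9%. With N737H, 59 members were above R820W and 17 below (median 0.06). Both N737H libraries were above for 17 (13.1% of all genes) and below for 1, MRPL10 (15.2%). For I593T against N737H, 65 were above and 11 below (median 0.06), with 5 members above without overlap (10.7%), namely MRPL10, MRPL11, MRPL45, MRPL50 and MRPS18A, and 0 below (9.65%).

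MRPL41, a mitochondria-specific protein of the large subunit, had the widest range of all members. It stood at 20.9, 17.3, 18.5 and 19.8 CPM in the A libraries of WT, R820W, N737H and I593T. In B it stood at 19.7, 30.3, 66.0 and 108 CPM. The A libraries and WT B lay between 17.3 and 20.9 CPM, and the 3 variant B libraries lay above them. The log2 fold change of I593T against R820W was 1.43 ± 0.79 (SE, n = 2 per group; edgeR adjusted p = 1.00), and it turned to -0.26 without I593T B. For the same pair MRPS16, a bacterial homolog, had -0.06 ± 0.18. N737H against R820W gave 0.27 ± 0.19 for MRPL33, a small bacterial homolog, and -0.11 ± 0.16 for MRPL10, which anchors the MRPL12 stalk. MRPS26 had 0.44 ± 0.37 for I593T against N737H, which turned to -0.24 without I593T B, and MRPL30, a bacterial homolog, had -0.05 ± 0.14.

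**Figure D3:**
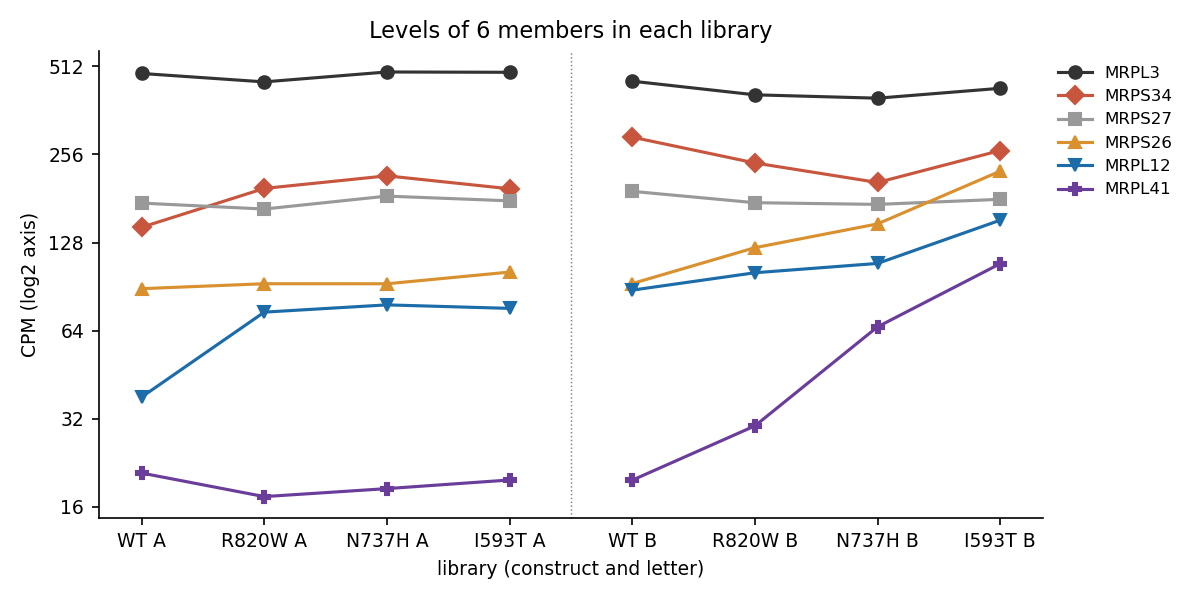
CPM of 6 members in each library on a log2 axis, A libraries left and B libraries right of the dotted line, with lines that only join the symbols of 1 gene. MRPL3 and MRPS27 are near flat, MRPS34 is lowest in WT A (144 CPM) and highest in WT B (293 CPM), and MRPL41, MRPS26 and MRPL12 are highest in I593T B (108, 224 and 153 CPM).

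Between the letters, with the construct as a term in the model, MRPL12 was the only member that passed the test. It rose in B by 0.78 ± 0.15 on the log2 scale (SE, 4 libraries per letter; edgeR adjusted p = 0.0422) and was higher in B in all 4 constructs. Across all genes 3.24% passed, 1.71% higher in B and 1.52% lower. Above 0 stood 56 members and below 0 stood 20, with a median of 0.11 against 0.03 over all genes tested. At an unadjusted p under 0.05 stood 8 members, all higher in B, where 11.7% of all genes were higher in B and 11.3% lower at that threshold. The median was 0.12 for MRPL and 0.05 for MRPS genes.

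The MRPL12 call was lost without R820W A, R820W B, I593T A or I593T B, where its edgeR adjusted p was 0.151 to 0.204. It was lost too without the construct term (0.0596) and with an offset for GC content in each library (0.0598, log2 fold change 0.48). Over all alternatives that adjusted p ran from 0.000153 with DESeq2 to 0.204. DESeq2 called 3 members, MRPL12, MRPS21 and MRPS26. The share of all genes called in this fit and in the other alternatives is not given here, so these counts have no background beside them. Without either WT library, edgeR called MRPL12, MRPS26 and MRPL41.

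MRPS21, a homolog of a small bacterial protein, had 48.6, 54.1, 61.7 and 55.0 CPM in the A libraries of WT, R820W, N737H and I593T and 77.4, 67.1, 71.4 and 80.0 CPM in the B libraries. All 4 B values exceeded all 4 A values, with a difference of 0.43 ± 0.10 (SE; edgeR adjusted p = 0.0717). Next came MRPS26 (0.57 ± 0.17, adjusted p = 0.106), MRPL24 (0.53 ± 0.17, adjusted p = 0.134) and MRPL34 (0.29 ± 0.10, adjusted p = 0.151). MRPL24, a bacterial homolog near the exit tunnel, had 48.6 to 74.0 CPM in A and 78.2 to 110.5 CPM in B, also without overlap. Members lower in B in all 4 constructs numbered 4 (17.8% of all genes), and 8 were higher in all 4 (15.2%). The 4 were MRPL47 (-0.20 ± 0.09), MRPL3 (-0.18 ± 0.08), MRPS35 (-0.10 ± 0.08) and MRPL30 (-0.08 ± 0.08). MRPL47, a bacterial homolog at the tunnel exit, had 179 to 204 CPM in A and 153 to 194 CPM in B.

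The step from A to B was not the same in the 4 constructs. In WT, 68 members were higher in B and 8 lower, with a median of 0.44. R820W had 49 higher and 27 lower (median 0.06), and I593T had 52 higher and 24 lower (median 0.08). N737H ran the other way, with 9 higher and 67 lower (median -0.16). The cytosolic ribosomal protein genes had medians of 0.58, -0.02, -0.14 and 0.24 in WT, R820W, N737H and I593T. Without WT B, the fitted B against A medians were 0.0051 for MRPL and -0.02 for MRPS genes.

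GC content of the transcript moved with some of these differences. The members' principal transcripts ranged from 35.0% GC in MRPL50 to 71.9% in MRPL41, with a median of 49.6%. The 8 members below both WT libraries in every variant library had 35.0% (MRPL50) to 48.5% (MRPS22). MRPL12 had 64.6% and MRPS26 63.4%. These members were picked by their differences in the same libraries, so their GC contents are a description and no test. Over the 76 members, Spearman's correlation coefficient of GC content with the log2 fold change was 0.62 for R820W against WT, 0.32 for N737H, 0.54 for I593T and 0.60 for B against A. Over the 11918 genes tested with a GC value it was 0.27, -0.08, 0.30 and 0.39. Over 80 cytosolic ribosomal protein genes it was 0.19, -0.10, 0.11 and 0.15 in the same order. For B against A it was 0.74 over the MRPL genes and 0.33 over the MRPS genes. Between variants, over the 76 members, it was -0.40 for N737H against R820W, -0.05 for I593T against R820W and 0.57 for I593T against N737H. These are correlations across genes of the same libraries, given as descriptions.

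Between libraries the counts themselves differed in composition, with a count-weighted mean GC content from 47.5% in WT A to 48.8% in I593T B. In WT A, that coefficient for GC content and the members' deviation was -0.74, and in I593T B it was 0.64. The 26 members of lowest GC content had a median deviation of 0.03 in WT A, the 25 in the middle -0.14 and the 25 of highest GC content -0.34. For B against A these medians were -0.0039, 0.11 and 0.22. For R820W against WT they were -0.22, -0.17 and -0.03. For I593T against WT they were -0.09, -0.05 and 0.05. In WT B the members of lowest GC content also stood above their means, with a median of 0.19 against 0.32 for those of highest. The part of GC content in these differences was not tested beyond the offset, with which the fitted medians were -0.15 (MRPL) and -0.13 (MRPS) for R820W, -0.04 and -0.05 for N737H, and -0.02 and -0.02 for I593T.

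**Figure D4:**
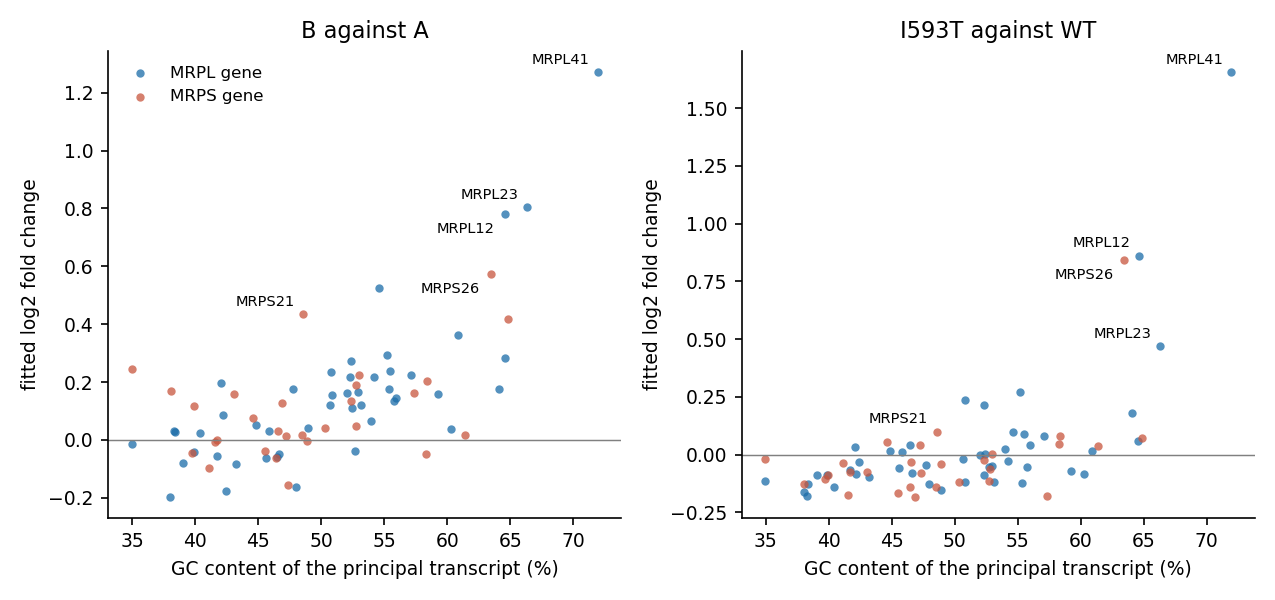
Fitted log2 fold change of each member against the GC content of its principal transcript, for B against A (left) and I593T against WT (right), with 47 MRPL and 29 MRPS genes. Spearman's correlation coefficient over the 76 members is 0.60 and 0.54, and MRPL41 (71.9% GC) lies at the top right of both panels.

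The stalk base of the large subunit consists of MRPL11 and MRPL10, on which MRPL12 sits. MRPL11 had 72.0 CPM in WT A and 111 CPM in WT B, and 89.2 to 118 CPM in the variant libraries. MRPL10 had 62.9 and 79.0 CPM in WT, and 63.1 to 74.2 CPM in the variant libraries. MRPS12, the decoding-centre homolog of the bacterial streptomycin-resistance protein, had 70.7 CPM in WT A and 126 CPM in WT B, and 88.3 to 112 CPM in the variant libraries. For MRPL10 and MRPS12 every variant library lay between the 2 WT libraries.

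The 3 MRPS18 paralogs have different places, since the protein of MRPS18A sits in the large subunit and those of MRPS18B and MRPS18C in the small. MRPS18A had 132 and 199.8 CPM in WT A and B, MRPS18B 138 and 203 CPM, and MRPS18C 105 and 137 CPM. WT B was the highest library for all 3. How reads shared by such relatives were counted is not given in the sources used here. MRPS36, which later work assigned to the alpha-ketoglutarate dehydrogenase complex, had 42.1 and 57.9 CPM in WT and 37.5 to 55.3 CPM in the variant libraries.

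By descent, 46 members are homologs of bacterial ribosomal proteins and 29 are specific to mitochondria, with MRPS36 in neither class. The bacterial homologs had a median of -0.17 for R820W against WT, -0.11 for N737H and -0.05 for I593T. For the mitochondria-specific members the medians were -0.10, -0.08 and -0.05. For B against A they were 0.12 and 0.08.

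Other genes of mitochondrial translation were called by edgeR in 0 cases in any comparison, among 5 further lists. At an unadjusted p under 0.05 stood GADD45GIP1 of the large subunit in I593T against WT and against R820W, where 1.43% and 1.23% of all genes did. For B against A, that threshold was met by 2 genes with other symbols, 5 assembly factors, 2 translation factors, 2 synthetases and 1 regulator higher in B, and by 1 translation factor, 1 synthetase and 3 regulators lower in B, beside 11.7% of all genes higher and 11.3% lower. For the 7 mitochondrial ribosomal proteins with other symbols, such as DAP3 of the small subunit (mean 182 CPM), 6 of 7 were below WT with R820W (median -0.14), 5 of 7 with N737H (-0.11) and 5 of 7 with I593T (-0.03). Assembly and rRNA-modification factors (22 genes, with NGRN at 194 CPM and FTSJ2, a 2′-O-methyltransferase of the large-subunit rRNA, at 189.8 CPM) had medians of -0.07, -0.08 and 0.04. For the 14 translation factors, led by the elongation factor TUFM (586 CPM), the medians were -0.05, 0.03 and -0.02. The 20 aminoacyl-tRNA synthetase and amidotransferase genes, among them IARS2 (148 CPM), had -0.06, -0.09 and -0.06. 

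Within the letters, several of these lists lay below WT in B, as the members did. The cytosolic ribosomal protein genes did so too, with medians of -0.40, -0.37 and -0.16 for R820W, N737H and I593T in B. Their medians in A were 0.18, 0.33 and 0.15. In B the proteins with other symbols had medians of -0.37, -0.35 and -0.17 for R820W, N737H and I593T, and in A they had 0.12, 0.31 and 0.14. The assembly factors had -0.18, -0.21 and -0.07 in B and 0.10, 0.09 and 0.09 in A. The synthetases had -0.14, -0.23 and -0.16 in B and 0.0072, 0.09 and -0.02 in A. The translation factors had medians of -0.08 to 0.02 in A and -0.03 to 0.07 in B.

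The regulators of mitochondrial transcription and biogenesis were tested for 13 of 14 genes, since PPARGC1A had a mean of only 0.05 CPM. Their medians were -0.06 for R820W, -0.05 for N737H and 0.13 for I593T. MYC (739 CPM) had 0.0060 ± 0.15 (SE), -0.11 ± 0.15 and 0.07 ± 0.15. It was at 741 CPM in WT A and 744 CPM in WT B, and ran from 641 CPM in N737H B to 816 CPM in I593T B. MAX, its partner, had a mean of 220.5 CPM, with its lowest value in WT A (145 CPM) and its highest in WT B (259 CPM). Of the 13 regulators, 5 were higher and 8 lower in WT B than in WT A. TFAM, which packages mitochondrial DNA and acts in its transcription, had -0.29, -0.01 and -0.08. GABPA, an ETS factor, had -0.06, 0.01 and -0.23, and YY1 had -0.04, 0.09 and 0.14 (edgeR adjusted p = 1.00 for MYC in each).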

How the data were processed

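The authors deposited 1 table of counts, whole numbers without normalization, with genes as rows by symbol and the 8 libraries as columns. Per the submitters' processing notes, hg19, FastQC, MACS2 and DESeq2 were named, without versions or roles. Which aligner, counter, annotation and strand setting made the counts is not given in the sources used here, so reads of pseudogenes, read-through models or overlapping genes may have been assigned to members.

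Genes were filtered with filterByExpr by group, which kept 99.93% of the counts. Counts were normalised by trimmed means of M values and tested on all 8 libraries with edgeR 4.0.16 (quasi-likelihood, two-sided) in R 4.3.3. The 4 construct means were fitted for constructs, and construct and letter for B against A. P-values were adjusted by Benjamini-Hochberg over all genes tested, with a threshold of 0.05. Standard errors come from the fold change and its F statistic. CPM are edgeR's, and log2 CPM have a prior count of 2. The edgeR scripts were tested on simulated data. DESeq2 1.42.0, other scalings and filters, the letter as a block and each library left out were alternatives. An offset for GC content and a test of the variants minus WT between the letters (construct, letter and a term for the variants in B) were added after seeing the data.

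The members and lists were chosen with earlier results of these data known. Named genes were, per comparison with WT, up to 3 members of smallest p in each direction with a mean level of 5 CPM or more and 1 direction in A and B (1 for pairs of variants, 5 for B against A with 1 direction in all 4 constructs), the most and least variable members, the 3 most abundant and the median member of each subunit, and members of set roles. Up to 2 genes per further list were named by level. MRPL23, MRPL42, MRPS22, MRPS31, the other members listed by count, those of the test between the letters, TFAM, GABPA, YY1, GADD45GIP1, TACO1 and MRM1 were named after their values were seen. Transcript length and GC content come from GENCODE 29 and promoters from RefSeq, both on GRCh38, a build other than hg19, and were joined by symbol (GC for 80.3% of the genes tested). Between libraries, chi-square per gene was at least 5.21 (N737H A and I593T A), and all 8 were counted as separate samples. Letters were not taken to pair the libraries.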

Additional observations from a re-analysis of the deposited data

Results flagged for a closer look

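MRPL12 in WT A was at 38.0 CPM, far below the other 3 A libraries, which lay between 74.1 and 78.4 CPM. The gap to the nearest was 0.892 of the whole range. MRPL3 in R820W A was at 453 CPM, below the other 3 at 484 to 489.9 CPM, with a gap of 0.845 of the range. Both gaps exceed Dixon's critical value at 95% for 4 values. The 22 sets were the A or the B libraries for the MRPL sum, the MRPS sum and the members named for B against A. Those members were picked by their p between the letters in these same libraries, and the sets are not independent. Chance marks about 1 in 20 sets that are independent and not so picked, so that rate does not hold here. Of the 22 sets looked at, 2 were marked.

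The difference between the variants and WT had opposite signs in the letters. For the MRPL genes the mean summed level of the 3 variants minus WT was 426 CPM in A and -1274 CPM in B. For the MRPS genes it was 260.3 CPM in A and -689.8 CPM in B. Every variant lay above WT in A and below WT in B for both sums. The difference between the letters was not tested on the sums. Gene by gene, edgeR called 0 members for it in the test added after these values had been seen. There, 41 of 76 had an unadjusted edgeR p under 0.05 (17.5% of all genes did).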

How the results depend on the processing

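With 2 libraries per group, 0 members were called in the 7 construct comparisons under every alternative run. The same was true of the added GC offset. For B against A, where 1 member was called, library totals alone gave 2 members (MRPL12 and MRPS21), DESeq2 gave 3 and the fit without the construct term gave 2 (MRPL41 and MRPS21). With each library left out that count ran from 0 to 3. The GC offset called 1 member, MRPS21 (adjusted p = 0.0406). The shares of all genes called in these alternative B against A fits are not given here. Libraries left out in turn moved the MRPL median from -0.27 to 0.11 for R820W against WT and from -0.14 to 0.22 for I593T, and the MRPS median from -0.17 to 0.15 for I593T, lowest without WT A and highest without WT B. The same ranges for I593T against R820W were -0.26 to 2.19 for MRPL41 and -0.12 to 0.0043 for MRPS16. For I593T against N737H they were -0.24 to 0.91 for MRPS26 and -0.12 to 0.0096 for MRPL30, which was 0.0062 without N737H A. MRPS35 in B against A was 0.0090 with the GC offset. For the difference between the letters in the variants minus WT, where edgeR called 0 members, it called 9 with no filter on low counts and 0 to 20 with a variant library left out, and DESeq2 called 6. In that test, edgeR called 29 of 14834 genes in the main fit and 862 of 22949 with no filter. DESeq2 called 543 of 22949. With any variant library left out, which leaves 1 library of that construct, edgeR also called more genes in all than in the main fit. The higher member counts thus stood beside more calls over all genes. The cause of these shifts was not tested. Counting error is small for members other than MRPL23.

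Libraries of the same letter did not all deviate together. Over all genes, deviations from the group means correlated at 0.0242 between WT and N737H and at 0.312 to 0.41 in the other pairs. Over the members they correlated at 0.689 to 0.903 between variants and at 0.0452 to 0.302 with WT. The letters were taken as shared labels only. With the letter as a replicate block, 0 members were called in each construct comparison, as without it, and at most 5 had an unadjusted p under 0.05 (R820W against WT, where 2.59% of all genes did). Of all genes, edgeR called at most 0.00674% under the block, and 2.11% to 4.52% had an unadjusted edgeR p under 0.05. DESeq2 called at most 0.122% under the block (N737H against R820W), and 1.09% to 2.43% had an unadjusted DESeq2 p under 0.05.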

Other observations

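Beyond the members, 3 genes of mitochondrial translation that were named after their values were seen were also highest in I593T B. GADD45GIP1, whose protein belongs to the large subunit, had 2.61, 2.80, 3.64 and 5.03 CPM in the A libraries of WT, R820W, N737H and I593T and 4.34, 4.18, 7.68 and 17.1 CPM in the B libraries. Its log2 fold change was 1.66 ± 0.62 (SE, n = 2 per group; edgeR adjusted p = 1.00) for I593T against WT and 1.06 ± 0.23 (adjusted p = 0.0565) for B against A. TACO1, a translational activator of a cytochrome c oxidase subunit, had 3.16 to 3.93 CPM in A and 4.54 to 11.5 CPM in B. MRM1, a methyltransferase of the large ribosomal RNA, had 5.82 CPM in WT A, 17.1 to 20.8 CPM in the other A libraries and 28.2 to 40.2 CPM in B.

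A few rows close in name to the members fell outside the rule. MRP63, an older symbol of a large-subunit protein gene, had 2222 to 3441 counts. The pseudogenes MRPS31P5 and MRPL45P2 had 125 to 219 and 79 to 126 counts, MRPL42P5 had 0 to 9 and the antisense gene MRPL23-AS1 had 0 to 3.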
